A study of Mus musculus with 12 samples.

Results

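Fibroblast-like synoviocytes line the joint cavity and make its matrix. TNF, the cytokine that blocking antibodies target in arthritis, drives them through its receptors and NF-kB to secrete chemokines, cytokines and matrix-degrading proteases. SOX4, SOX11 and SOX12 form the SOXC group of transcription factors, which act in progenitor and mesenchymal cells. The question treated here is whether loss of SOXC changed how strongly genes responded to TNF, which is the difference between the TNF response of knockout cells and that of control cells (the interaction).

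Synoviocytes from SoxC mice received either Ade5CMV-eGFP, an adenovirus that carries a green fluorescent marker, or Ade5CMV-Cre, which delivers the recombinase that makes the SoxC knockout. Cells of both kinds were left without TNF or were given 10 ng/mL recombinant human TNF for 16 h. This gave 4 groups of 3 libraries (control, control_TNF, SoxC_KO and SoxC_KO_TNF). All cells, controls included, came from SoxC mice and carried an adenovirus, and the labels do not say which part of each gene Cre removes, the age of the mice or whether replicates were separate animals. The p-values therefore cover the variation among libraries alone, and that variation could be technical. Replicates were compared over genes with a mean count of at least 200. The median absolute log2 ratio of replicates 1 and 2 was 0.0784, 0.342, 0.134 and 0.162 in the groups in the order above. Pairs with replicate 3 had 0.358 to 0.791. All 18139 genes (34% of the 53341 listed) that reached 10 normalized counts in 3 or more of the 12 libraries are described.

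Each library held an estimated 8140000 to 13700000 read pairs. Collagens and other fibroblast markers were abundant everywhere, with a summed normalized count of 162000 to 486000 over 10 genes. The sum of 10 macrophage markers was 1410 to 3490 in control, 1560 to 4070 in control_TNF, 1690 to 4060 in SoxC_KO and 1890 to 3570 in SoxC_KO_TNF, and the highest value of each group belonged to replicate 3. Of these markers, Ptprc and Mrc1 were each listed at 0 in 1 library. The sum of 9 liver markers was 722 in control_TNF replicate 2 and 4270 in SoxC_KO_TNF replicate 1, against 98.8 to 278 in the others. Skeletal muscle transcripts stood apart in SoxC_KO replicate 1 and SoxC_KO_TNF replicate 1, where Myh4, a myosin heavy chain, had counts of 188 and 277 against 0 to 13.3 elsewhere, and Ckm, muscle creatine kinase, 59.1 and 95.3 against 0 to 4.45. Without these 2 libraries 0 interactions were called. The 6 lymphocyte markers summed to 6.21 to 22.4 in all libraries. In such bulk samples, fewer cells of a type and less RNA per cell cannot be told apart, and the part of these cells in the results was not tested.

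Sox4, the most abundant of the targeted genes, was lower in the libraries labelled knockout. Its counts were 4238, 4143 and 1857 in control, 1697, 3646 and 1625 in control_TNF, 1432, 1433 and 548 in SoxC_KO and 1020, 1086 and 601 in SoxC_KO_TNF. The knockout libraries lay below all control libraries for Sox4, while Sox11 and Sox12 had lower knockout means but overlapped between genotypes. Sox11 was 175 and 157 in SoxC_KO replicates 1 and 2, against 153 and 138 in replicate 3 of control and of control_TNF. Sox12 was 259 in SoxC_KO replicate 3, against 162 in control replicate 3. The TNF interactions of the targeted genes were 0.31 for Sox4 (SE 0.67), -0.30 for Sox11 (SE 0.94) and -0.94 for Sox12 (SE 0.46, unadjusted p = 0.0659 by limma's test), with positive values meaning a higher TNF response in knockout cells.

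No gene had a TNF response that differed between genotypes past the threshold. Over 18139 genes, 0% were called at a Benjamini-Hochberg adjusted p under 0.05 in limma, and the smallest adjusted p was 0.884. At an unadjusted p under 0.05 there were 273 genes (1.505%), fewer than the 907 that uniform p-values would give. Of these 273, 113 had a higher response in knockout cells (0.623% of genes tested) and 160 a lower one (0.882%). The p-values of this fit thus ran high, and 0 called genes does not show that the responses were equal. The same model with libraries weighted by their spread called 5656 genes. Its estimation stopped before convergence and gave 1 library, control_TNF replicate 1, a weight of 103 against 0.0891 to 5.29 for the other 11. Weights estimated gene by gene, an alternative added after that result was seen, spanned 0.113 to 4.66 and gave 0 called genes, with a smallest adjusted p of 0.0796 and 5600 genes at an unadjusted p under 0.05. Without the 2 libraries with liver transcripts, 1 gene was called, Fam219aos, an opposite-strand gene chosen here after its values were seen. Its counts were 0 and 0 in the SoxC_KO_TNF libraries left and 23.1 to 47.8 in the other libraries left. In the libraries left out they were 1.78 (control_TNF replicate 2) and 23.95 (SoxC_KO_TNF replicate 1). Its interaction was -6.128 in that fit and -3.255 with all 12 libraries.

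The genes that TNF moved on average had close median responses in the genotypes. Averaged over the genotypes, 159 genes rose with TNF (0.877% of genes tested) and 53 fell (0.292%). These counts depend on the libraries and the processing. Removing each library's trend on transcript GC content and length gave 371 and 153. Without control replicate 1 there were 97 higher and without control_TNF replicate 1 there were 105, while leaving out any 1 of 10 libraries (all but SoxC_KO replicate 3 and control replicate 3) left 20 to 33 lower. Without the 2 libraries with muscle transcripts the counts were 70 and 13, and without the 2 with liver transcripts 72 and 20. The average does not favour either sign of the interaction, so it was used to pick TNF-responsive genes. The median log2 response of the 159 induced genes was 1.27 in control and 1.36 in knockout cells. Their median interaction was 0.04, with 73 of 159 below 0, against -0.0006 with 9076 of 18139 below 0 over all genes. For the 53 repressed genes the median response was -0.999 in control and -1.04 in knockout cells, the median interaction -0.13, and 34 lay below 0. Over the other settings tried, the median of the same 159 genes lay between -0.04 and 0.09, and that of the same 53 between -0.23 and 0.11.

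**Figure D1:**
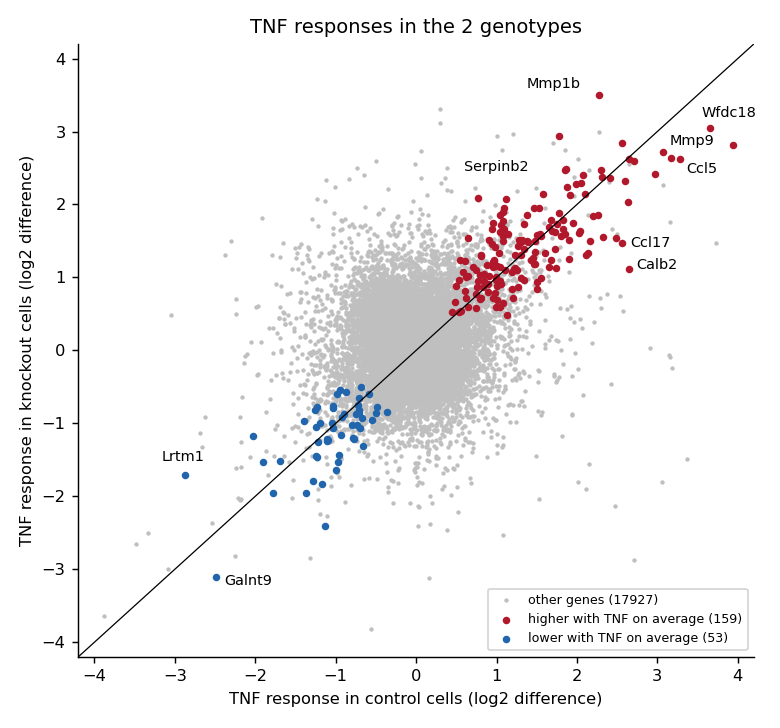
TNF response (log2 difference of TNF-treated from untreated cells, 3 libraries a group) in control cells on the x axis and knockout cells on the y axis, 1 point per gene, with the line of equal response; 1 gene lies outside the axes. The 159 induced and 53 repressed genes scatter around the line, with interactions of -1.52 to 1.31 and of -2.05 to 1.16.

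The precision behind these statements is limited. The median 95% interval of an interaction reached 1.14 to either side on the log2 scale, from 0.821 for genes with a mean count of at least 5000 to 1.67 for those under 50. For 59 of the 159 induced genes the whole interval lay within 1 log2 unit of 0. For 102 of them the interval's lower end stayed above a loss of 1 log2 unit. In this fit, variation shared by libraries of the same number stays in the error. Within a genotype, untreated and treated libraries of the same number correlated at 0.103 to 0.715. With the replicate number as a block the median SE fell from 0.519 to 0.309. Then 3123 genes had an unadjusted p under 0.05 in limma and 0 were called, with a smallest adjusted p of 0.284.

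The 10 genes with the largest average rise included chemokines and proteases. Ccl5, a chemokine for T cells and monocytes, had counts of 239, 191 and 279 in control, 2815, 2229 and 1878 in control_TNF, 341, 233 and 393 in SoxC_KO and 1692, 2524 and 1746 in SoxC_KO_TNF. TNF-treated libraries were above untreated ones in both genotypes, and the treated groups overlapped. Its log2 response was 3.28 in control and 2.63 in knockout cells, and the interaction was -0.65 (SE 0.37, unadjusted p = 0.111). Mmp9, a gelatinase, had responses of 3.08 and 2.72 (interaction -0.35, SE 0.47). Acod1, which makes itaconate, had counts of 76.9, 114 and 137 in control, 543, 568 and 490 in control_TNF, 116, 124 and 142 in SoxC_KO and 736, 721 and 544 in SoxC_KO_TNF. Its responses were 2.31 and 2.37, and its interaction was 0.06 with a 95% interval of -0.67 to 0.79.

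Mmp10, a stromelysin, had an interaction of -0.05 (SE 0.61). Mmp1b and Mmp1a, collagenase genes that are close copies and may share reads, had interactions of 1.23 (SE 0.88) and 0.29 (SE 0.84). Wfdc18, Ccl3, Gpr84 and Slc39a4 had interactions of -0.61, -0.53, -0.03 and -0.12, with SE of 0.59, 0.75, 0.52 and 0.76. All 10 intervals included 0.

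Among the 10 with the largest average fall, Galnt9, which starts O-linked glycosylation, stood first. Its counts were 147, 169 and 127 in control, 25.9, 25.4 and 25.1 in control_TNF, 178, 137 and 164 in SoxC_KO and 18.1, 19.4 and 15.1 in SoxC_KO_TNF. All 3 treated knockout libraries lay below all 3 treated controls, and the untreated groups overlapped. The responses were -2.48 and -3.11, and the interaction was -0.63 (SE 0.31, unadjusted p = 0.0683). With each library's trend on transcript GC content and length removed, the interaction of Galnt9 was -0.099 (unadjusted p = 0.823 in limma). Dio3, which inactivates thyroid hormone, had an interaction of -0.50 (SE 0.34). The interval of Lrtm1 ran from -0.48 to 2.80, and those of Adra1d, Aqp5, Arsi, Scara5, Erv3, Lrrc17 and Crocc2 also included 0.

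**Figure D2:**
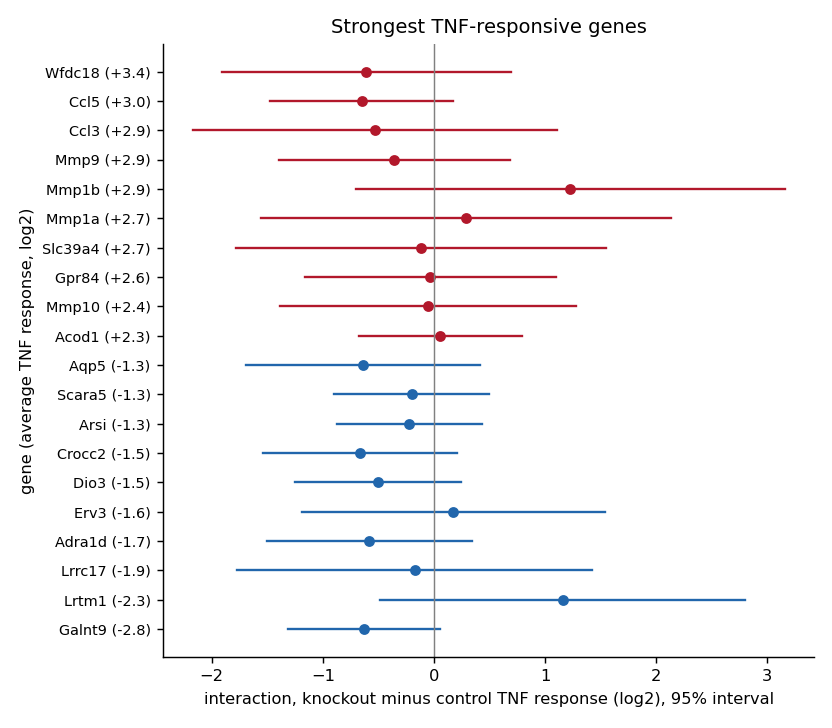
Interaction (log2, x axis) with its 95% interval for the 10 genes that rose most (red) and the 10 that fell most (blue) with TNF on average; the number after each name is the average log2 response. All 20 intervals include 0, and Acod1 has an interval of -0.67 to 0.79.

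The induced genes with the smallest interaction p below 0 were Calb2, Pdgfb, Nfkb2, Adtrp and Ccl17. Calb2 encodes calretinin, a calcium-binding protein. Its counts were 11.2, 9.96 and 16.7 in control, 103, 44.4 and 120 in control_TNF, 26.3, 21.7 and 31.35 in SoxC_KO and 66.0, 56.1 and 52.9 in SoxC_KO_TNF. The untreated knockout libraries were above all untreated controls, while the treated groups overlapped. The response was 2.64 in control and 1.12 in knockout cells, an interaction of -1.52 (95% interval -2.68 to -0.36, unadjusted p = 0.0147, adjusted p = 0.884).

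Nfkb2 encodes the p100 precursor of the noncanonical NF-kB pathway. Counts were 1753, 1825 and 1410 in control, 3719, 3611 and 3500 in control_TNF, 1990, 1939 and 2960 in SoxC_KO and 2964, 3839 and 2788 in SoxC_KO_TNF. The untreated knockout libraries all exceeded the untreated controls, and replicate 3 of SoxC_KO reached the treated knockout range. The interaction was -0.64 (SE 0.30, unadjusted p = 0.0567).

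Ccl17, a ligand of CCR4, had counts of 9.56, 7.47 and 19.6 in control, 112, 76.3 and 42.1 in control_TNF, 26.4, 21.7 and 21.5 in SoxC_KO and 79.0, 52.3 and 68.7 in SoxC_KO_TNF. The untreated groups did not overlap, and the treated ones did. Its interaction was -1.09 (SE 0.58, unadjusted p = 0.0883). Pdgfb, a growth factor for mesenchymal cells, had responses of 1.51 and 0.83 (interaction -0.67, SE 0.30, unadjusted p = 0.0446). Adtrp had an interaction of -0.81 (SE 0.38, unadjusted p = 0.058).

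The induced genes with the smallest p above 0 were Cd274, Slc40a1, Serpinb2, Rffl and Grem1. Cd274 encodes PD-L1, the T cell checkpoint ligand. Its counts were 142, 173 and 197 in control, 228, 312 and 214 in control_TNF, 183, 173 and 146 in SoxC_KO and 328, 357 and 518 in SoxC_KO_TNF. All 3 treated knockout libraries were above all 3 treated controls, and the untreated groups overlapped. The interaction was 0.68 (SE 0.34, unadjusted p = 0.0699). Serpinb2, an inhibitor of plasminogen activators, had responses of 1.85 and 2.48 (interaction 0.63, SE 0.33). Slc40a1, the iron exporter ferroportin, had an interaction of 0.91 (SE 0.45). Grem1, a BMP antagonist, had one of 0.62 (SE 0.35), and Rffl one of 0.43 (SE 0.25).

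**Figure D3:**
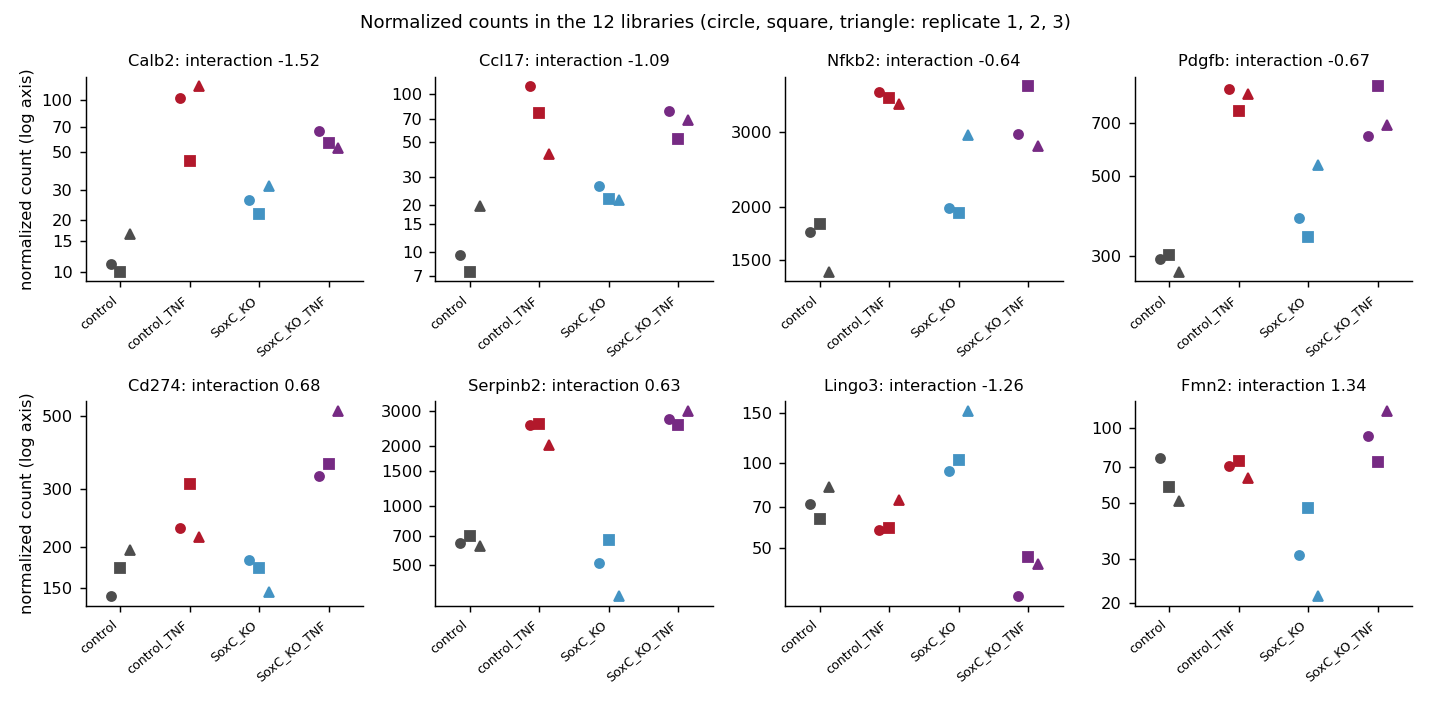
Normalized counts (log axis) of 8 genes in each of the 12 libraries, by group, with replicates 1, 2 and 3 as circle, square and triangle; the interaction (log2) is above each plot. Cd274 and Lingo3 show treated knockout libraries apart from treated controls, and Calb2 and Ccl17 show untreated libraries apart.

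Among repressed genes the smallest p below 0 belonged to Il4ra, Galnt9, Crocc2, Lmod1 and Dio3. Il4ra, a receptor subunit for IL-4 and IL-13, had counts of 5299, 5332 and 5126 in control, 4164, 3987 and 4127 in control_TNF, 6339, 5356 and 6995 in SoxC_KO and 3370, 3813 and 3190 in SoxC_KO_TNF. Neither the untreated nor the treated groups overlapped. The responses were -0.36 and -0.84, an interaction of -0.48 (SE 0.22, unadjusted p = 0.0506). Above 0 the smallest p belonged to Prss23os, Lrtm1, Clca3a2, Masp1 and Pparg. Pparg, the adipogenic nuclear receptor, had responses of -1.24 and -0.78 and an interaction of 0.46 (SE 0.37).

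Over all genes, the 12 with the smallest p and a lower knockout response were Lingo3, Egfl8, Cenps, Rusc1, Calb2, Ttc9b, Aldh16a1, Lrfn4, Sema4f, Rn7s2, H1fx and Lrwd1. Lingo3, a leucine-rich repeat membrane protein, had counts of 71.7, 63.1 and 82.2 in control, 57.7, 58.6 and 73.8 in control_TNF, 93.3, 103 and 153 in SoxC_KO and 33.7, 46.5 and 43.7 in SoxC_KO_TNF. Untreated knockout libraries were the highest and treated knockout libraries the lowest, with no overlap. Its interaction was -1.26 (SE 0.36, unadjusted p = 0.00481, adjusted p = 0.884). Only Calb2 of these 12 was among the induced genes.

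The 12 with a higher knockout response were Entpd1, Fmn2, Dus4l, Chn1, Hist1h2bq, Spata7, Abcg2, Hpgd, Abca8a, Tdrp, Zfp97 and Plek. Entpd1, the ATP-degrading ectoenzyme CD39, had counts of 67.3, 68.5 and 51.0 in control, 35.0, 47.7 and 39.5 in control_TNF, 55.2, 39.5 and 36.8 in SoxC_KO and 61.7, 67.0 and 56.1 in SoxC_KO_TNF. Treated libraries were lower than untreated in control cells and higher in knockout cells. Its interaction was 1.10 (SE 0.35, unadjusted p = 0.00961). Fmn2, an actin nucleator, had responses of 0.18 and 1.52 (interaction 1.34, SE 0.44, unadjusted p = 0.0112). Hpgd, which degrades prostaglandins, had responses of -1.23 and -0.08 (interaction 1.14, SE 0.43).

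GC content of the transcript moved with the interaction. The 12 named genes with a lower knockout response had transcripts of 53.5 to 71.3% GC, all above the median gene (49.3%). The 12 with a higher response had 37.6 to 50.5%, and 10 of these 12 lay below the median gene. Over the 18112 genes with an annotated transcript, the median interaction was 0.59 in the lowest and -0.43 in the highest of 5 equal groups of genes by GC content. The rank correlation across genes was -0.598, and these genes share the same 12 libraries. For 5 such groups by transcript length the medians ran from -0.29 for the shortest to 0.37 for the longest, with a rank correlation of 0.365.

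Libraries differed in the same property. The median of the highest GC group minus that of the lowest was 1.634 (log2 deviation from the gene's mean) in SoxC_KO replicate 3, 0.717 in control_TNF replicate 3, 0.322 in control replicate 3 and -0.159 in SoxC_KO_TNF replicate 3. It was -0.674 to 0.049 in the libraries numbered 1 and 2. Without SoxC_KO replicate 3 the interaction medians of the lowest and highest groups were 0.178 and -0.208, and without all 4 libraries numbered 3 they were 0.205 and -0.205. With each library's trend on GC content and length removed, an alternative added after seeing the data, they were 0.07 and 0.03, and 0 genes were called, with 273 at an unadjusted p under 0.05. In that fit the interaction was -0.74 for Lingo3 (unadjusted p = 0.0155), -1.14 for Calb2 (0.0192), -0.19 for Nfkb2 (0.413), 0.42 for Cd274 (0.204), 0.77 for Entpd1 (0.0313) and -0.03 for Abcg2 (0.955). For Pdgfb it was -0.14 (0.584), for Ccl17 -0.72 (0.304), for Adtrp -1.08 (0.0259) and for Il4ra -0.29 (0.0813). Slc40a1 had 0.44 (unadjusted p = 0.345 in limma), Serpinb2 0.20 (0.228), Grem1 0.30 (0.259) and Rffl 0.22 (0.355).

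**Figure D4:**
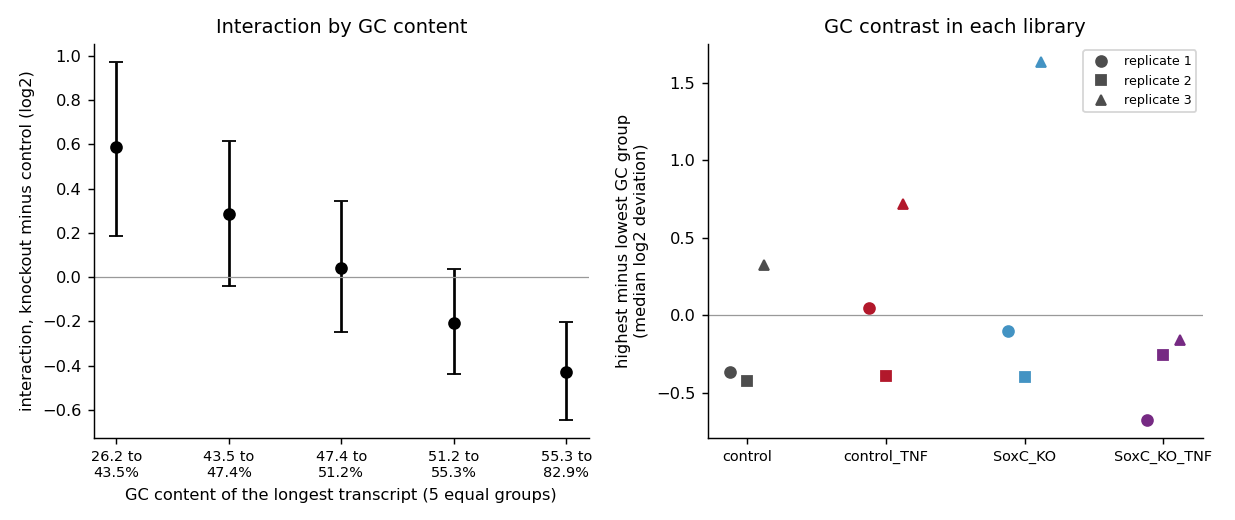
Left, median interaction (log2, bars from the lower to the upper quartile of genes) for 5 equal groups by transcript GC content; right, the highest minus the lowest GC group in each library (median log2 deviation from the gene's mean). The medians run from 0.59 to -0.43, and SoxC_KO replicate 3 is highest at 1.634.

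The first 150 coding bases are shown for the extremes by transcript GC among the named genes, the one with the highest and the one with the lowest. They come from the longest annotated coding transcript (GENCODE vM21), were chosen after the values were seen, and have G and C in capitals. H1fx, a linker histone on chromosome 6 (87980421 to 87981637, minus strand, mm10), has 71.3% GC over its transcript and 68.0% in this stretch, and its interaction was -1.11. Zfp97, a zinc-finger gene on chromosome 17 (17121415 to 17146831, plus strand), has 37.6% and 46.0%, and its interaction was 1.05. In the first 150 coding bases the 2 directions overlapped. Coding genes named for a lower knockout response had 54.7 to 78.0% GC there, and those for a higher one 33.3 to 64.0%.
H1fx: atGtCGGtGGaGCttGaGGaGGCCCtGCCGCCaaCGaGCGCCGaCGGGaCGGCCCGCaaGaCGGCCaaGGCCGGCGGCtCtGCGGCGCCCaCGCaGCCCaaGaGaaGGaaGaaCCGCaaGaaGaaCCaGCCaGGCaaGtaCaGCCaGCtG
Zfp97: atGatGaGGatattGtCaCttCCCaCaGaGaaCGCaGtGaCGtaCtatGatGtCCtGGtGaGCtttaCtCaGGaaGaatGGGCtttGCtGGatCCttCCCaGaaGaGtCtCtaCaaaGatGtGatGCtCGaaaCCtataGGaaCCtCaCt

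Most chemokines had an interaction below 0, and no 95% interval left out 0. Of 21 tested, 11 rose with TNF on average, and 16 of 21 interactions lay below 0 (median -0.21, against -0.0006 over all genes), with none at an unadjusted p under 0.05. Values below 0 included Ccl3 (-0.53), Cxcl3 (-0.44) and Cx3cl1 (-0.37), while Cxcl10 (0.01) and Cxcl9 (-0.03) lay near 0. Ccl20 (0.12) and Cxcl11 (1.14) lay above 0. The transcripts of this list have a median of 45.0% GC, below the 49.3% of all genes, and a median length of 1863 bases, shorter than the 3029 of all genes. Of the 2 shortest of the 5 length groups, 69.9% and 61.5% of genes lay below 0. With the GC and length trend removed 19 of 21 lay below 0 (median -0.28), and 20 of 21 without the libraries numbered 3. Without the libraries with muscle transcripts it was 15 of 21 (median -0.094).

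Antigen presentation genes had the lowest median of the 24 lists, -0.61, with 14 of 16 below 0 (50% of all genes) and 2 at an unadjusted p under 0.05 (0.882% of all genes). Their transcripts have a median of 54.4% GC, and in the 2 GC groups from 51.2% up, 71.7% and 87.7% of all genes lay below 0. H2-Eb1, an MHC class II chain, had counts of 15.9, 8.30 and 23.8 in control, 30.8, 38.7 and 56.2 in control_TNF, 14.1, 17.8 and 64.2 in SoxC_KO and 23.3, 15.5 and 21.2 in SoxC_KO_TNF. SoxC_KO replicate 3 was the highest of all. The interaction was -1.76 (SE 0.78, unadjusted p = 0.0441). Tap2, a subunit of the peptide transporter, had means of 1201 and 1913 in control without and with TNF, and 1857 and 1685 in knockout cells (interaction -0.76, unadjusted p = 0.0482). H2-K1 and Psmb8 had interactions of -0.53 and -0.73. With the trend removed the list's median was -0.245 with 12 of 16 below 0.

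NF-kB pathway genes had interactions on both sides of 0. The median over 24 genes was 0.16 with 10 below 0, and none had an unadjusted p under 0.05. The subunits Nfkb2 and Relb had values of -0.64 and -0.68, while the subunit Rel had 1.26. Bcl3 and Nfkbia, of the IkB family, had -0.65 and -0.20. The feedback inhibitor Tnfaip3 had 0.45. Of the 24, 8 rose with TNF on average.

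Cytokines and growth factors had a median of 0.17, with 9 of 28 (32.1%) below 0 and 8 that rose on average. Their transcripts have a median of 44.8% GC. In the GC group from 43.5 to 47.4%, 28.2% of all genes lay below 0 and the median interaction was 0.29. Il6, the acute-phase inducer, had responses of 0.97 in control and 1.24 in knockout cells (interaction 0.27). Il1a had 1.86 and 2.49 (0.63), Csf3 2.63 and 2.04 (-0.60) and Tnf itself 1.61 and 1.34 (-0.27). Ereg, an EGF receptor ligand, had counts of 2530, 2635 and 1840 in control, 3396, 4642 and 2102 in control_TNF, 2082, 2666 and 664 in SoxC_KO and 5701, 5305 and 5468 in SoxC_KO_TNF. The treated knockout libraries lay above all others. Its interaction was 1.35 (SE 0.64, unadjusted p = 0.057).

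Of 27 matrix proteases and inhibitors, 8 rose on average and 14 had an interaction below 0 (median -0.05). Mmp8, the neutrophil collagenase, had counts of 15.9, 19.9 and 19.6 in control, 9.95, 31.7 and 13.5 in control_TNF, 11.3, 17.8 and 13.4 in SoxC_KO and 44.0, 44.5 and 28.7 in SoxC_KO_TNF (interaction 1.56, unadjusted p = 0.021). Only SoxC_KO_TNF stood above the rest, with 1 library overlapping control_TNF. Mmp12, the macrophage elastase, had an interaction of 1.08 (unadjusted p = 0.0476). Mmp3 and Mmp13, which rose on average, had -0.19 and 0.39. In the prostaglandin and nitric oxide list, Ptgis, prostacyclin synthase, had means of 42.1 and 81.1 in control and 73.3 and 53.7 in knockout cells (-1.43, unadjusted p = 0.0472).

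The contractile and actin list had a median of -0.31 with 10 of 12 below 0. Cnn1 and Lmod1, smooth muscle proteins, fell on average and had interactions of -0.36 and -0.42. With the trend removed the median was -0.0734 with 6 of 12 below 0. Interferon-stimulated genes had a median of 0.10 with 14 of 36 below 0, and Gbp2 had an interaction of 0.23. Extracellular matrix genes had a median of -0.13 (19 of 31 below 0), and without the libraries numbered 3 it was 0.074. Of the SOXC targets in the list, Tead2, Tubb3 and Ezh2 had -0.50, -0.29 and 0.50. The medians of the lists not described so far lay between -0.25 and 0.18.

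**Figure D5:**
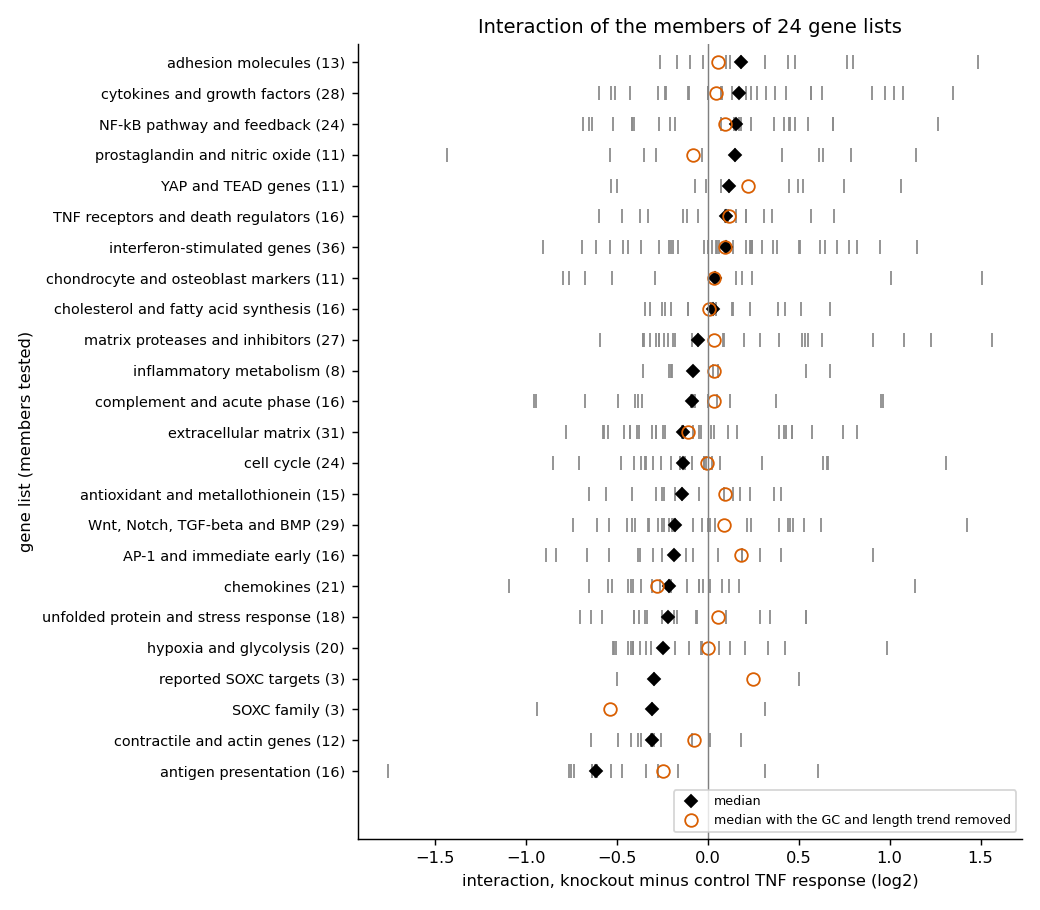
Interaction (log2, x axis) of each member (ticks) of 24 gene lists, with the list's median (diamond) and the median with the GC and length trend removed (open circle); the number of tested members follows each name. Antigen presentation is lowest at -0.61, and at -0.245 with the trend removed.

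Promoters were read for the induced genes because NF-kB carries the TNF signal and SOXC factors bind SOX motifs. In the RefSeq table (GRCm38.p6, 250 bases before to 50 after the start), 11845 tested genes and 100 of the 159 induced genes had a promoter. The NF-kB consensus was found in 27 of the 100 (27.0%) and in 12.3% of tested genes with one. AACAAAG or AACAATG on either strand was found in 14 (14%), against 7.36%. Of induced genes with an interaction below 0, 14 of 48 held the NF-kB consensus and 4 of 48 a SOX motif. Above 0 these were 13 of 52 and 10 of 52. Promoters were also searched for the 12 genes named over all genes in each direction. The NF-kB consensus was in 2 of 9 with a lower knockout response and 1 of 10 with a higher one. A SOX motif was in 0 of 9 and 0 of 10. Over all 32851 promoters of that length in the table, 8.46% held the NF-kB consensus and 9.36% a SOX motif. A match is only these letters in the window. The promoters of Nfkb2 (chr19:46304487-46304786, plus strand) and Cd274 (chr19:29367188-29367487, plus strand) are shown as induced genes with interactions on either side of 0. NF-kB matches are in capitals, some of them overlapping, and no match of either motif was found for Cd274.
Nfkb2: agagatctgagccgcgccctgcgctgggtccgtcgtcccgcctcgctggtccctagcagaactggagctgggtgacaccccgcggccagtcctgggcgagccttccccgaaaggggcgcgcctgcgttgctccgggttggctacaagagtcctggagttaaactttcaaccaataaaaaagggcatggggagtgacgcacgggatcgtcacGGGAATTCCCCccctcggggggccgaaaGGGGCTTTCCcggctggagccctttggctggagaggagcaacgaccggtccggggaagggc
Cd274: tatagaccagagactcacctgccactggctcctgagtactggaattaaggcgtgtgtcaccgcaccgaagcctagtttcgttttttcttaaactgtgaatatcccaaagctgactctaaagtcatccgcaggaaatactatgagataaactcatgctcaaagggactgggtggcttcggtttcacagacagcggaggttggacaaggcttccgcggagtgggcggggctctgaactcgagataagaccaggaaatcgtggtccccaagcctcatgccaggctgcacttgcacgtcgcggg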

How the data were processed

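Poly(A) RNA of 12 synoviocyte samples was sequenced as paired reads, per the labels' protocols. The authors deposited log2 normalized counts, with mm10 and DESeq named in the submitters' processing notes. The sources used here do not give the aligner, annotation or strand setting. Values of 1 or less are listed as 0. Whole reads could not be recovered, so no count model was used. The deposited log2 values were turned back into normalized counts, which are what the text prints, and log2(count + 1) was fitted with limma 3.58.1 in R 4.3.3, with 1 mean per group and a variance trend. The filter was a count of at least 10 in at least 3 libraries. P-values were Benjamini-Hochberg adjusted over 18139 genes, with a threshold of 0.05. Fold changes on this scale understate the change of low genes.

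The code was tested on simulated data. The genes and lists were chosen with earlier results of these data known. Except for picks from the lists, named genes had a group mean of at least 50 and an established name. They were the 12 with the smallest interaction p in each direction and the 10 with the largest average rise and fall. Among the induced and the repressed genes, the 5 with the smallest interaction p in each direction were added. In each list the genes with the smallest p and the largest TNF effect were named without these limits. Mmp8 and H2-Eb1 had highest group means of 39.1 and 41.9. List members outside this rule (Cxcl3, Tap2, Relb, Il6 and the like) were picked as examples after their values were seen. GC content and length come from the longest GENCODE vM21 transcript. Read pairs were estimated from the commonest low value of each library. No 2 libraries were identical. Figures were drawn with matplotlib 3.10.9. In all, 23 planned and 4 added alternatives were run.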

Additional observations from a re-analysis of the deposited data

How the results depend on the processing

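The interaction called 0 genes in 25 of 27 alternatives. Library quality weights called 5656, with 3316 genes higher and 3410 lower on average and medians of -0.3634 for induced and 0.3914 for repressed genes. Gene-by-gene weights, added later, gave 1682, 1742, -0.2234 and 0.321. Without the libraries with liver transcripts 1 gene was called, with 72 higher and 20 lower on average. Without the libraries with muscle transcripts, added later, there were 70 and 13, with a repressed median of -0.4188. These medians are over the genes called in each setting. The replicate block gave 0 called, 546 higher and 395 lower, with 3123 genes at an unadjusted p under 0.05. Shared numbers were not read as pairs, since 17 of 18 same-number correlations exceeded 0.1 but 1 did not (control_TNF with SoxC_KO_TNF, number 1), though all 6 within a genotype did, and 4 of 12 libraries correlated best with their own number in all 3 other groups. With the block, antigen presentation had 9 of 16 genes lower at an unadjusted p under 0.05 and 1 higher (3 and 0 with the trend also removed). The NF-kB list had 2 lower and 3 higher of 24. Over all 18139 genes, 1293 were lower and 1830 higher with the block, and 909 and 1157 with the trend also removed. No filter left 30 lower. Without the 4 libraries numbered 3 there were 415 higher and 238 lower, with a repressed median of 0.1374. The GC and length trend removed, chosen after seeing the data, gave 371, 153 and 0.04324, and with the replicate block 1051, 753 and 0.04435. The cause of these shifts was not tested.

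Leaving out 1 library at a time gave 0 called interactions, 97 to 193 genes higher and 20 to 60 lower on average, induced medians of -0.09506 to 0.07225 and repressed medians of -0.2988 to 0.1025. The fewest higher calls, 97, came without control replicate 1, and the fewest lower calls, 20, without control replicate 2.

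Of 98 named genes, 70 kept the sign of their interaction in every alternative that tested them (27, or 26 for Egfl8, H2-Eb1, Mmp8 and Sfrp4) and 28 did not. The replicate block, no variance trend and the other filters leave each gene's value unchanged, so no sign could change there. Many of these genes were picked for a small interaction p in the same data, so a kept sign is no independent support. Under library quality weights 54 values passed the threshold, and in no other alternative did any. With the trend removed, and equally with the block added, the sign changed for Abcg2 (-0.02924), Comp (0.04071), Dio3 (0.02475), Adra1d (0.1308), Aqp5 (0.06207), Ier3 (0.08186), Arsi (0.2609), Cd74 (0.2535), Mmp1a (-0.04773), Slc39a4 (0.3255), Egln3 (0.1584), Dkk1 (-0.07471) and Gpr84 (0.3883). With library quality weights it changed for Tnfaip8 (-0.1084), Sp7 (0.1931), Mmp9 (0.1764), Arsi (0.144), Ccl3 (0.006209), Cd74 (0.03796), Nos2 (0.1922), Mmp1a (-0.9641), Lrrc17 (0.0172), Slc39a4 (0.8576), Egln3 (0.06198) and Gpr84 (0.3776). With gene-by-gene weights the values were -0.04398 for Tnfaip8, 0.135 for Sp7, 0.1535 for Mmp9, 0.09337 for Arsi, 0.104 for Cd74, 0.1242 for Nos2, -0.9239 for Mmp1a, 0.007754 for Lrrc17, 0.6762 for Slc39a4, 0.0425 for Egln3 and 0.3467 for Gpr84. Quantile normalization changed the sign of Mmp1a (-0.007679), Acod1 (-0.007135), Egln3 (0.00112), Dkk1 (-0.03349) and Mmp10 (0.08905). Without the 4 libraries numbered 3 it changed for Ifit2 (-0.05021), Mmp1b (-0.01042), Mmp9 (0.0255), Arsi (0.02761), Cd74 (0.2046), Nos2 (0.01236), Sele (-0.1513), Mmp1a (-0.9341), Slc39a4 (0.7288), Egln3 (0.04094) and Gpr84 (0.2546). Without the liver libraries it changed for Erv3 (-0.02191), Slc39a4 (0.147) and Nqo1 (-0.00452). Without the muscle libraries it changed for Sox11 (0.02568), Erv3 (-0.4256), Acod1 (-0.08439), Slc39a4 (0.00833), Nqo1 (-0.05101) and Dkk1 (-0.2158).

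With 1 library left out, values ran from -0.1214 to 0.2892 for Acod1, -0.9878 to 0.07608 for Ccl3, -0.4837 to 0.009174 for Cd74, -0.1564 to 0.2308 for Dkk1, -0.1294 to 0.09068 for Egln3 and -0.1982 to 0.4758 for Erv3. They ran from -0.2966 to 0.3109 for Gpr84, -0.5645 to 0.3698 for Lrrc17, -0.5143 to 0.3372 for Mmp10, -0.2779 to 1.065 for Mmp1a and -0.6713 to 0.1411 for Nos2. They ran from -0.3817 to 0.4937 for Nqo1, -0.1908 to 0.9613 for Sele, -0.7841 to 0.5784 for Slc39a4, -1.165 to 0.2154 for Sox11 and -0.148 to 0.7045 for Sox4.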
